A study of Mus musculus with 3 samples.

Results

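App, the amyloid precursor protein gene, and its paralog Aplp2 were followed through every alternative splicing event listed under these gene symbols in 15 tables of RNA-Seq splicing counts from the mouse hippocampus. The 2 genes had 7 of the 8727 events, 5 in App and 2 in Aplp2, and all 7 had counts in all 3 libraries. The events were 6 skipped exons and 1 pair of exons listed as mutually exclusive. There was 1 mouse in each of 3 groups, called CUG10 + vehicle, CUG300 + vehicle, and, for the treated mouse, CUG300 + CWG-cPIP. All 3 were wild-type C57BL/6J mice, 10 weeks old by the labels, and all had been injected in the CA1 region of both hippocampi with an adeno-associated virus of serotype 9 (AAV9), so the control carried the virus as well. The virus expressed Egfp mRNA with 10 or 300 CUG units in its 3′ untranslated region. Expansion of this repeat causes myotonic dystrophy type 1 (DM1). CWG-cPIP is a cyclic pyrrole-imidazole polyamide that binds CAG/CTG repeat DNA, and per the methods of the study it was injected in a mixture with the virus. The methods also give the injected mice as male, and the study's account of the sequencing places it 10 days after gene transfer. The methods read here name no promoter for the transgene, and only transduced cells of the tissue carry it. Where 3 values stand together they are in the order CUG10 + vehicle, CUG300 + vehicle, CUG300 + CWG-cPIP. With 1 mouse per group, each interval below covers counting error only and no difference has a replicate check.

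APP and APLP2 are single-pass membrane proteins that are cut by secretases. Cleavage of APP by β-secretase and then γ-secretase releases the amyloid-β peptide, and cleavage by α-secretase prevents it. An exon in each gene encodes a Kunitz protease inhibitor (KPI) domain in the extracellular part. Neurons mostly express the APP form that lacks this domain, whereas glia and most other tissues express more of the KPI forms. A further small exon in each gene lies just before the membrane region, and its skipping creates an attachment site for a chondroitin sulfate chain in the protein. In APP the forms without that exon, called L-APP, were described in leukocytes, microglia and astrocytes. APP splicing is among those reported to be altered in the brain in DM1.

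The KPI exons are shown because the main difference below was in one of them. They are the seventh exon of each gene, and the Kunitz family signature was found in the translation of both. The sequences were read from GENCODE M21 transcripts, 5′ to 3′ on the transcript strand, with the bases that encode the signature in capitals.
App exon 7: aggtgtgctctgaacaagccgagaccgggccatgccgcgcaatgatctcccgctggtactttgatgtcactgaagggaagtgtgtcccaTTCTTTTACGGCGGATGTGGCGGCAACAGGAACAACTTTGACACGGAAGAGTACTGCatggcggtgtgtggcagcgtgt
Aplp2 exon 7: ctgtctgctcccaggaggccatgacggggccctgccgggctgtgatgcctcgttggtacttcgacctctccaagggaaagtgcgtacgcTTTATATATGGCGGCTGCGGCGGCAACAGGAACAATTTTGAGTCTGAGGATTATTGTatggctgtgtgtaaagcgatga

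Both exons were 168 nt long and coding, and both start in the same phase of the reading frame. They were identical at 114 of 168 positions (67.9%), and 38 of the 55 residues of their whole codons were the same (69.1%). On build mm10, App (ENSMUSG00000022892.11) lies on the minus strand of chromosome 16 and its KPI exon runs from 85043576 to 85043743. Aplp2 (ENSMUSG00000031996.17) lies on the minus strand of chromosome 9 and its KPI exon runs from 31167561 to 31167728. GENCODE M21 places the KPI exon in 5 of 6 protein-coding App transcripts and in 2 of 4 of Aplp2.

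The juxtamembrane exons are shown because they are the second pair of corresponding exons of the genes. App exon 15 is 54 nt long (chromosome 16, 84971408 to 84971461), and Aplp2 exon 14 is 36 nt long (chromosome 9, 31156190 to 31156225). Below them stand the joins that form when each is skipped, with the last 21 bases of the exon before it in lower case and the first 21 bases of the exon after it in capitals.
App exon 15: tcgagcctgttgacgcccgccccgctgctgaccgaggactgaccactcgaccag
Aplp2 exon 14: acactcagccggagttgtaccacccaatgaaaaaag
App skipped join: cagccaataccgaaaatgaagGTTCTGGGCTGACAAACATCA
Aplp2 skipped join: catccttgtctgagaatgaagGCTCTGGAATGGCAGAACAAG

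Every alternative exon of both genes had a length divisible by 3, encoded no stop codon and started in the same phase, so each can be skipped without a frame shift. The other App exons with events were exon 8 (57 nt, chromosome 16, 85040251 to 85040307), which follows the KPI exon, and exon 14 (222 nt, 84978064 to 84978285). Exon numbers are those of the transcripts App-206 and Aplp2-203. Since the compound binds CAG/CTG DNA, the transcripts were also searched for CAG or CTG in tandem. The longest run in these spliced transcripts was 3 units in App and 3 in Aplp2. Of protein-coding genes, 28.5% had a run of at least that length. Introns were not searched.

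CUG300 + vehicle was set against CUG10 + vehicle to see where the longer repeat goes with other splicing. In App the KPI exon was included more often in the CUG300 + vehicle mouse. Inclusion is given as percent spliced in (PSI), here a fraction from 0 to 1 of length-corrected reads. The KPI exon of App had 43 inclusion and 379 skipping reads in CUG10 + vehicle, 43 and 142 in CUG300 + vehicle, and 55 and 321 in CUG300 + CWG-cPIP. These gave a PSI of 0.034 (95% Clopper-Pearson interval 0.024 to 0.045), 0.085 (0.060 to 0.116) and 0.050 (0.037 to 0.065). CUG10 + vehicle was thus lowest and CUG300 + vehicle highest, their intervals did not overlap, and that of the treated mouse overlapped with both. Most App transcripts across this exon lacked the KPI sequence in every library, with a skipped share of 0.966, 0.915 and 0.950.

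The difference of 0.051 (95% Newcombe interval 0.025 to 0.083) between CUG300 + vehicle and CUG10 + vehicle had an adjusted p of 0.0396 in Fisher's exact test, with Benjamini-Hochberg adjustment over 4558 skipped exons. As odds of inclusion this was 2.66-fold higher (1.68 to 4.23). Its unadjusted exact p of 4.35e-05 was the fifth smallest of the skipped exons in that pair. The difference lies below the size threshold of 0.15 used in the study, so the exon was not called. With the counts halved, as if both mates of each fragment had been counted, the adjusted exact p was 1, and over the 4 alternatives tried it ran from 0.0169 to 1. As a share of reads without length correction the difference was 0.131, also below the size threshold.

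The 2 forms of this exon differed in how their read numbers compared between libraries, with skipping reads lowest in CUG300 + vehicle. Inclusion reads stood at 70.5 (51.1 to 95), 75.7 (54.8 to 102.0) and 98.1 (73.9 to 127.7) CPM, that is, per 1000000 counts at alternative events. Skipping reads, which join exon 6 to exon 9, stood at 621.8 (560.7 to 687.6), 250.1 (210.7 to 294.8) and 572.5 (511.6 to 638.7). The ratio of CUG300 + vehicle to CUG10 + vehicle was 0.402 (0.329 to 0.489) for skipping reads and 1.07 (0.687 to 1.68) for inclusion reads. For the treated against the vehicle mouse with CUG300 these ratios were 2.29 (1.87 to 2.81) and 1.3 (0.853 to 1.98). Such ratios depend on the library totals, so they do not settle which form differed. With totals that leave out cell type marker genes, CUG300 + vehicle to CUG10 + vehicle gave 0.436 for skipping and 1.16 for inclusion reads. The median event had 22 counts in CUG10 + vehicle and 13 in CUG300 + vehicle. In bulk tissue, fewer cells of a type and less RNA per cell cannot be told apart.

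**Figure D1:**
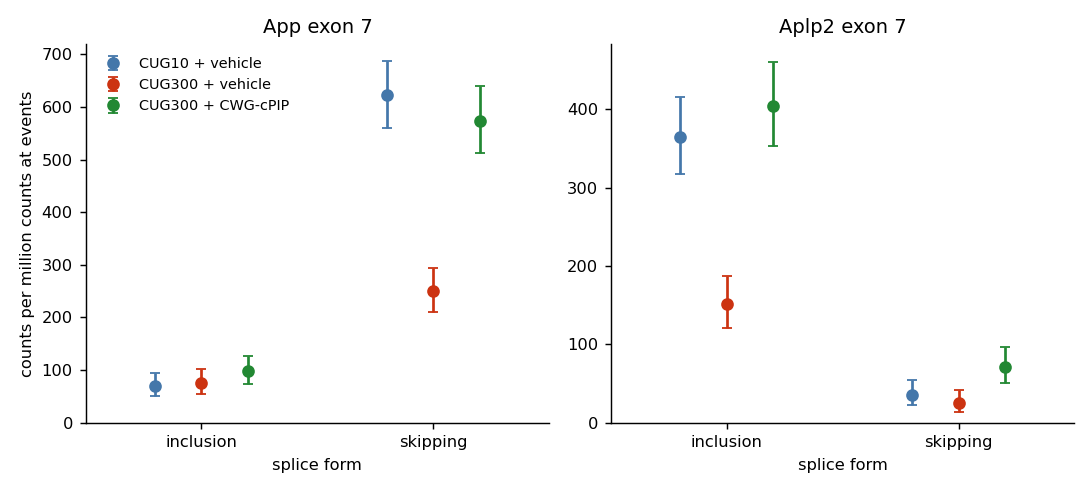
Inclusion and skipping counts of the KPI exons (exon 7) of App, left, and Aplp2, right, as CPM of all counts at alternative events on a linear axis, in 1 mouse per group with 95% Poisson intervals. Skipping reads of App stand at 250.1 in CUG300 + vehicle against 621.8 and 572.5 in the other libraries, while its inclusion reads lie between 70.5 and 98.1.

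The KPI exon of Aplp2 was included at a far higher level and did not follow that of App. It had 222 inclusion and 22 skipping reads in CUG10 + vehicle, 86 and 14 in CUG300 + vehicle, and 227 and 40 in CUG300 + CWG-cPIP. The PSI was 0.755 (0.665 to 0.834), 0.653 (0.515 to 0.782) and 0.634 (0.553 to 0.714), highest in CUG10 + vehicle, with intervals that overlapped between all libraries. CUG300 + vehicle minus CUG10 + vehicle gave -0.103 (-0.255 to 0.042), an adjusted exact p of 1, and -0.050 without length correction. Its inclusion reads were fewer in CUG300 + vehicle, at 0.416 (0.32 to 0.536) of the level in CUG10 + vehicle, and its skipping reads stood at 0.683 (0.323 to 1.4), an interval that spans 1.

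The responses of the paralogous exons were set against each other as the ratio of their odds ratios. For CUG300 + vehicle against CUG10 + vehicle, the odds ratio of the App KPI exon was 4.41 times (1.9 to 10.3) that of the Aplp2 KPI exon. The interval lies above 1, so these exons differed in how the 2 libraries compare. The corresponding ratio was 0.601 (0.274 to 1.32) for CUG300 + CWG-cPIP against CUG300 + vehicle, which spans 1, and 2.65 (1.33 to 5.3) for CUG300 + CWG-cPIP against CUG10 + vehicle. These are 3 of 6 such intervals computed, unadjusted, and the pairs share libraries.

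The App exon that follows the KPI exon was shallow. Exon 8 is listed between exon 7 and exon 9, so its PSI refers to transcripts that already hold the KPI exon. It had 6 inclusion and 13 skipping reads in CUG10 + vehicle, 3 and 10 in CUG300 + vehicle, and 10 and 9 in CUG300 + CWG-cPIP. The PSI was 0.207 (0.075 to 0.424), 0.145 (0.029 to 0.397) and 0.386 (0.186 to 0.636), and all intervals overlapped. No difference was detectable at this depth. The widest gap, 0.241 (-0.041 to 0.476) between CUG300 + CWG-cPIP and CUG300 + vehicle, had an exact p of 0.147 before adjustment.

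**Figure D2:**
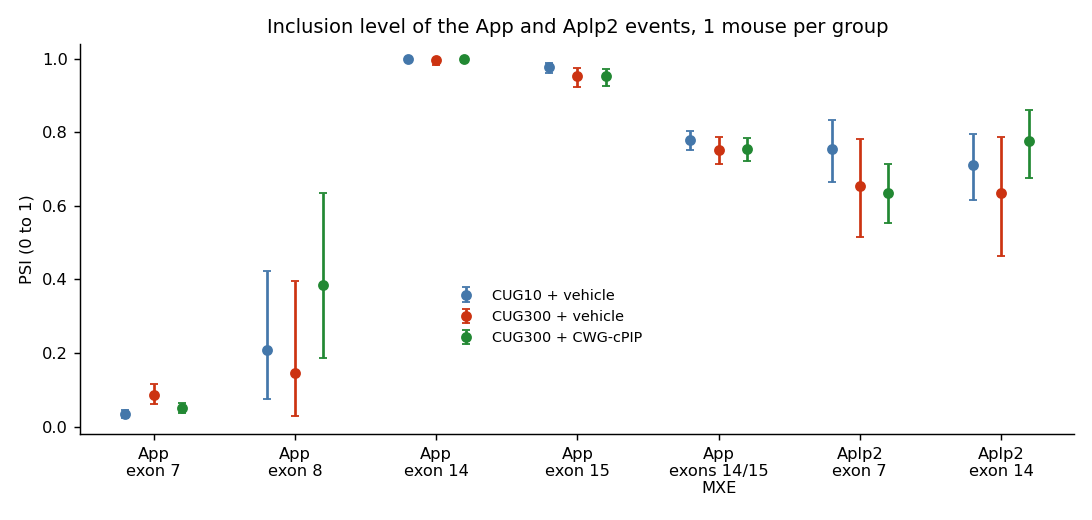
PSI, from 0 to 1, of the 7 App and Aplp2 events in the 3 libraries, with points for 1 mouse and bars for 95% Clopper-Pearson intervals. In the order of the legend, App exon 7 stands at 0.034, 0.085 and 0.050, and Aplp2 exon 7 at 0.755, 0.653 and 0.634.

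Near the membrane region, App was spliced almost fully to the long form. Exon 15 had 845 inclusion and 11 skipping reads in CUG10 + vehicle, 467 and 13 in CUG300 + vehicle, and 606 and 17 in CUG300 + CWG-cPIP. The PSI was 0.978 (0.961 to 0.989), 0.954 (0.923 to 0.975) and 0.954 (0.927 to 0.973). L-APP forms were thus a share of 0.022 in CUG10 + vehicle and 0.046 in each mouse with 300 repeats. The differences from CUG10 + vehicle were -0.024 (-0.056 to 0.001) in CUG300 + vehicle and -0.024 (-0.052 to -0.00026) in CUG300 + CWG-cPIP, with exact p-values of 0.0837 and 0.0531 before adjustment and 1 after it. Between the 2 mice with 300 repeats the interval of the difference ran from -0.033 to 0.035. Without length correction both differences from CUG10 + vehicle were -0.014.

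The corresponding exon of Aplp2 was skipped more often. Exon 14 had 102 inclusion and 28 skipping reads in CUG10 + vehicle, 31 and 12 in CUG300 + vehicle, and 93 and 18 in CUG300 + CWG-cPIP. The PSI was 0.710 (0.615 to 0.795), 0.635 (0.465 to 0.788) and 0.777 (0.676 to 0.860), lowest in CUG300 + vehicle, with overlapping intervals throughout. The difference was -0.075 (-0.253 to 0.088) for CUG300 + vehicle minus CUG10 + vehicle and 0.142 (-0.025 to 0.319) for CUG300 + CWG-cPIP minus CUG300 + vehicle, with an adjusted exact p of 1 for both. Between App exon 15 and Aplp2 exon 14 the ratio of odds ratios was 0.672 (0.221 to 2.04) and 0.499 (0.167 to 1.49) in these pairs, and 0.335 (0.124 to 0.905) for CUG300 + CWG-cPIP against CUG10 + vehicle.

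Exon 14 of App, which encodes the stretch before exon 15, was included in nearly all reads. It had 2226, 1190 and 1570 inclusion reads, and 1 skipping read in all, in CUG300 + vehicle. Its PSI was 1.000 (0.993 to 1.000), 0.997 (0.982 to 1.000) and 1.000 (0.991 to 1.000). The tables also list exons 14 and 15 as mutually exclusive, with exon 14 as the inclusion form. That event had 1583 and 195 reads for exon 14 and exon 15 in CUG10 + vehicle, 856 and 123 in CUG300 + vehicle, and 1139 and 161 in CUG300 + CWG-cPIP. Its PSI was 0.778 (0.751 to 0.804), 0.751 (0.713 to 0.786) and 0.754 (0.722 to 0.784). As skipped exons the same exons had PSI values that add to 1.978, 1.951 and 1.954, so most transcripts held both. Reads inside the exons are counted in both kinds of event, which are therefore not independent. CUG300 + vehicle minus CUG10 + vehicle was -0.028 (-0.072 to 0.015) for this pair of exons, with an adjusted exact p of 0.773 over 303 such events, and -0.016 without length correction.

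**Figure D3:**
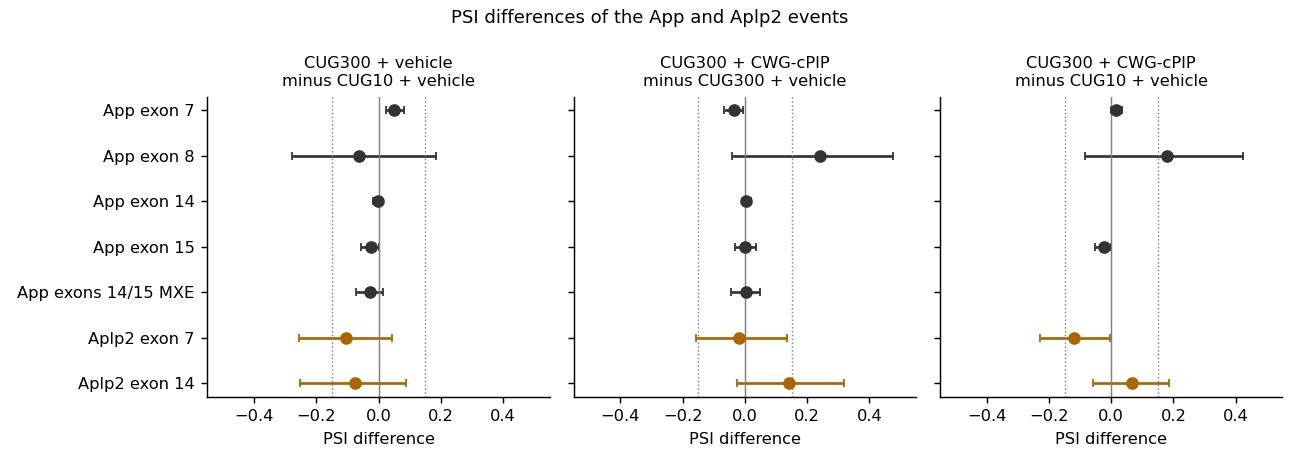
PSI differences of the App (dark) and Aplp2 (brown) events in each pair of libraries, first minus second, with 95% Newcombe intervals and dotted lines at the size threshold of 0.15 on either side of 0. App exon 7 stands at 0.051 (0.025 to 0.083) in the left panel, and the 2 events with no point on the right are not listed in that pair.

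By the rule for a call, an adjusted exact p below 0.05 with an absolute PSI difference above 0.15, 0 of 7 App and Aplp2 events were called for CUG300 + vehicle minus CUG10 + vehicle, against 0.16% of 6263 listed events. With no size threshold, 1 of 7 passed, the KPI exon of App, against 0.303%. At an unadjusted exact p below 0.05 the count was 1 of 7, against 2.75% of all events. The median absolute PSI difference was 0.115 over all listed events of this pair and 0.021 over the 1043 skipped exons with at least 50 counts in each library. An inclusion as low as that of the App KPI exon was uncommon at that depth. Of 1124 skipped exons with at least 50 counts in each of the 3 libraries, 29 (2.58%) had a PSI below 0.1 in CUG10 + vehicle, and 14 of the 29 were higher in CUG300 + vehicle.

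**Figure D4:**
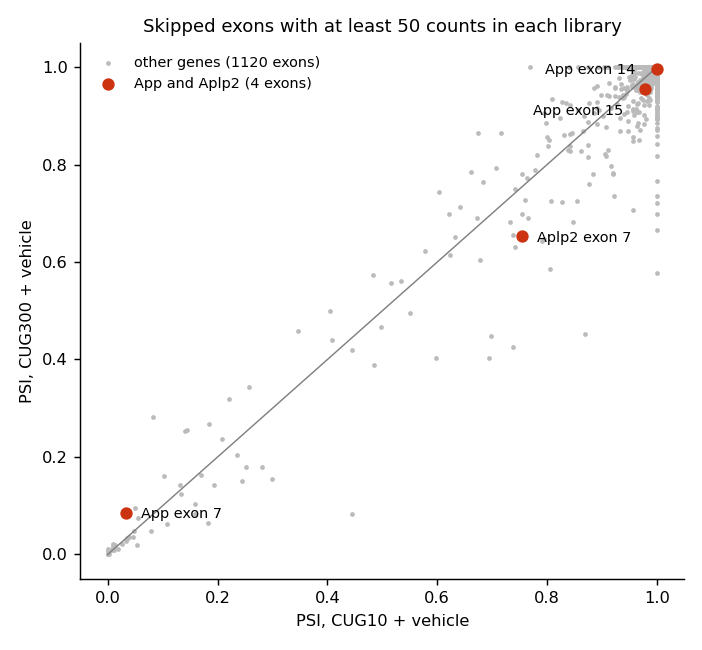
PSI in CUG300 + vehicle against PSI in CUG10 + vehicle, both from 0 to 1, of 1124 skipped exons with at least 50 counts in each library, with 4 exons of App and Aplp2 in red and the line of equal values. App exon 7 lies above the line at 0.034 and 0.085, and Aplp2 exon 7 below it at 0.755 and 0.653.

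The treated and untreated mice with 300 repeats were compared to see where splicing differs with CWG-cPIP. The KPI exon of App stood at 0.050 with CWG-cPIP against 0.085 with vehicle, which did not pass the adjusted test. The difference was -0.035 (-0.068 to -0.007), with an exact p of 0.0131 before adjustment and 1 after it over 4916 skipped exons, and it was -0.086 without length correction. The KPI exon of Aplp2 stood at 0.634 against 0.653, a difference of -0.018 (-0.158 to 0.135). Here 0 of 7 events were called, against 0.389% of 6679, and 0 of 7 passed with no size threshold, against 0.539%. At an unadjusted exact p below 0.05 the count was 1 of 7, against 3.58%.

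The treated mouse was also set against CUG10 + vehicle, to see what still separates it from the short repeat. The KPI exon of App was at 0.050 against 0.034, a difference of 0.016 (-0.0005 to 0.034). Its exact p was 0.066 before adjustment, and the difference was 0.044 without length correction. That of Aplp2 was at 0.634 against 0.755, a difference of -0.121 (-0.228 to -0.005) with an exact p of 0.0424 before adjustment and 1 after it, and -0.060 without length correction. Skipping reads of this Aplp2 exon were 1.98 times (1.15 to 3.49) as frequent in the treated mouse, and inclusion reads 1.11 times (0.92 to 1.34). In this pair 5 of the 7 events are listed. Of these 0 were called, against 0.115% of 6983, and 0 passed with no size threshold, against 0.229%. The count at an unadjusted exact p below 0.05 was 1 of 5, against 2.25%. The other 2, App exon 14 and the pair of exons 14 and 15, are not listed in this pair and differed by 0.000 (-0.010 to 0.007) and -0.025 (-0.065 to 0.015).

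Reads of both genes were fewest in CUG300 + vehicle, as were those of neuron markers. Over all their events, App had 8696.6 (8464.1 to 8934.0), 5016.8 (4834.2 to 5204.5) and 6934.5 (6718.3 to 7156.0) CPM. Aplp2 had 613.6 (553.0 to 679.0), 251.9 (212.3 to 296.7) and 674.2 (607.9 to 745.7). These are counts at alternative events, with reads of App exons 14 and 15 counted more than once, and not gene expression. The median event also had fewest counts in CUG300 + vehicle, at 22, 13 and 24. Fewer reads there were thus not particular to App and Aplp2. Ttr alone took 67703.4 CPM of that library. The 8 measured neuron markers of a list of 12, among them Snap25 and Rbfox3, summed to 16814.2, 6505.2 and 16863.7, and 0 of 8 were higher in CUG300 + vehicle than in CUG10 + vehicle. The 7 measured microglia and immune markers of 15 summed to 2319.8, 18006.1 and 4409.0, with 7 of 7 higher. Most of the sum in CUG300 + vehicle came from B2m (11208.4), H2-K1 (3540.6) and H2-D1 (2131.4). Aif1, Cd68, Cd74 and Trem2 stood at 769.8, 112.7, 218.4 and 24.7 in that library. The 2 measured choroid plexus markers of 6, Ttr and Enpp2, summed to 780.9, 71284.5 and 717.0, with 2 of 2 higher. The 3 measured astrocyte markers of 10 summed to 662.8, 1463.8 and 1266.3, with 1 of 3 higher, which was Gfap. Oligodendrocyte markers (5 of 12 measured) summed to 8962.4, 7444.1 and 9898.8, with 1 of 5 higher, which was Mag at 1128.7, 1469.1 and 1064.8. Endothelial and mural markers (2 of 7) summed to 47.6, 29.9 and 55.3, with 0 of 2 higher. These last sums rest on few reads and have no interval, so their order may be counting error. Markers were read only at events with counts in all 3 libraries, so that none of those measured was at 0 says little. The hippocampal neuron marker Camk2a stood at 280.5, 49.3 and 668.8 CPM. The App KPI exon was included most in CUG300 + vehicle. In that library the summed microglia and immune, choroid plexus and astrocyte markers were highest. The microglia and immune sum was mostly B2m, H2-K1 and H2-D1, the choroid plexus sum mostly Ttr, and the astrocyte sum was highest through Gfap. The summed neuron and oligodendrocyte markers were lowest in CUG300 + vehicle, although Mag was highest there. The small endothelial and mural sum was lowest there too. The part of these markers in the difference of the App KPI exon was not tested.

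**Figure D5:**
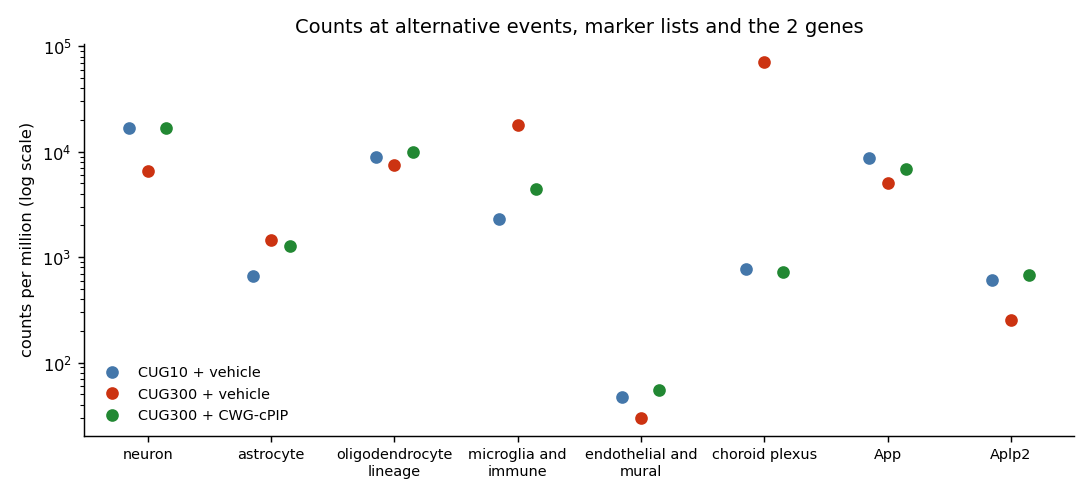
CPM of all counts at alternative events, on a log axis, summed over the measured markers of each cell type list and over the events of App and Aplp2, in 1 mouse per group. In the order of the legend, App stands at 8696.6, 5016.8 and 6934.5, and the neuron markers at 16814.2, 6505.2 and 16863.7.

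Genes that process, sort or bind APP were read from a list of 63. Of these 27 had listed events for the long against the short repeat with vehicle, 31 for CWG-cPIP against vehicle with 300 repeats, and 32 for the treated mouse against the short repeat. In the same order, among 64, 78 and 80 events, 0, 2 and 0 were called, both with higher inclusion, against 0.16%, 0.389% and 0.115% of all listed events. Their median absolute differences of 0.074, 0.104 and 0.096 stand beside 0.115, 0.120 and 0.106 for all listed events. Both called events were in Rtn3, a reticulon that binds the β-secretase BACE1, and they are overlapping forms of a long exon on chromosome 19 that starts at 7456300. The 2124-nt form had a PSI of 0.260 with CWG-cPIP and 0.103 with vehicle, which differ by 0.158 (0.105 to 0.209), adjusted exact p = 8.16e-05. In CUG10 + vehicle this form was at 0.158, so the treated mouse lay above the control as well, by 0.102 (0.054 to 0.152), adjusted exact p = 0.0493, which is under the size threshold. The 1161-nt form had 0.293 and 0.143, a difference just past the size threshold (0.087 to 0.210), adjusted exact p = 0.0106. With halved counts neither was called. The 2124-nt form is also listed in a mutually exclusive event, with a PSI of 0.409 with CWG-cPIP and 0.627 with vehicle. That difference was -0.217 (-0.350 to -0.070), adjusted exact p = 0.0783. The PSI there is that of the other exon of the pair. A negative difference thus means a larger share of the 2124-nt form, the same direction as above.

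No event of the other genes on that list was called. The largest difference with an interval away from 0 was -0.402 (-0.608 to -0.143) for an exon of Bin1, a membrane-bending endocytic adaptor, between CUG300 + CWG-cPIP and CUG10 + vehicle. Klc1, the kinesin light chain, had -0.258 (-0.419 to -0.028) for an exon between CUG300 + vehicle and CUG10 + vehicle. Picalm, a clathrin assembly protein, had -0.193 (-0.357 to -0.020) for a 3′ splice site between CUG300 + CWG-cPIP and CUG10 + vehicle. For CUG300 + CWG-cPIP minus CUG300 + vehicle, an intron of Aph1a, a γ-secretase subunit, had 0.131 (0.027 to 0.250) and an exon of the reticulon Rtn4 had 0.107 (0.016 to 0.261). Sort1, the sorting receptor sortilin, had 0.091 (0.007 to 0.164) for an exon between CUG300 + CWG-cPIP and CUG10 + vehicle. The adjusted exact p was above 0.05 for all 6.

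Genes with a pattern like that of the KPI exons were sought by the distance between log odds ratios of CUG300 + vehicle against CUG10 + vehicle and of CUG300 + CWG-cPIP against CUG300 + vehicle, over 3 libraries and 830 genes with a skipped exon of at least 50 counts in each. The nearest to the App exon were exons of Rpl13a, Chchd6, Uchl1, Nrgn and Polb, and the nearest to the Aplp2 exon were exons of 2010107E04Rik, Mrpl52, Ifrd1, Rps3 and Coq2. Of the 5 nearest to App, 4 had 0 skipping reads in at least 2 libraries, as had 4 of the 5 nearest to Aplp2, and Rpl13a had 3, 2 and 1. Their odds ratios rest on the 0.5 added to each count, so no likeness to the KPI exons was read from these 9 exons. Coq2 alone was at a level near that of the Aplp2 exon, with a PSI of 0.766, 0.691 and 0.664 from 6, 7 and 7 skipping reads.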

How the data were processed

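Hippocampal RNA of 3 mice, 1 per group, was sequenced by the authors with a directional kit. The labels name Trim Galore 0.6.6 for trimming, STAR 2.7.9a and RSEM 1.3.3 for alignment, and mm10, and the authors quantified splicing with rMATS 4.1.2 for each pair of libraries. The deposited tables hold counts of inclusion and skipping reads, junction and exon reads together, the PSI as a fraction, and the form lengths in nt, an other kind of value. Columns of the authors' own comparisons (p-value, FDR and PSI difference) were not used. Which library is first in a table was read from the pair named with it, and counts of a library shared by 2 tables were identical in 14737 of 14737 comparisons. The deposited PSI was recomputed from counts and lengths within 0.0005. The skipping length of 74 nt corresponds to shorter reads than the study's methods give, which was not resolved.

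Fisher's exact test, two-sided (SciPy 1.17.1), was run across all listed events of a pair, with Benjamini-Hochberg adjustment within each event type. It compares the reads of 2 libraries, not the conditions. The test was tried on simulated data with independent reads and with changes in odds larger than that of the App KPI exon. That trial does not cover changes of the size reported here. The sources used here name no molecular identifiers, so reads may not be independent molecules. Over 7659 events with counts in all libraries, totals were 560672 to 609546 counts, with a median of 13 to 24 per event. Odds ratios had 0.5 added to each count. Exons were matched to GENCODE M21 (mm10). The genes, lists and the rule for named genes were chosen with earlier results of these data known: members with 20 or more counts per library were given in full, with App exon 8 beside them as the remaining one. Of the APP list, genes with a called event and up to 6 others by size of difference were named, and the 5 nearest genes for likeness. The alternatives were a minimum of 20 counts, adjustment over all event types, halved counts, no length correction and other size thresholds. Flanking introns were not analysed here.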

Additional observations from a re-analysis of the deposited data

How the results depend on the processing

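Of 73 values of App and Aplp2 events under 4 alternatives, 72 kept their side of the adjusted threshold. The exception was the App KPI exon for CUG300 + vehicle minus CUG10 + vehicle. It had an adjusted exact p of 1 with halved counts, since the exact test then rests on fewer reads. Its difference of 0.051 was taken from the full counts. All 73 kept their sign, which none of the 4 alternatives could change. Leaving out length correction does not alter the exact test either, so it could not move a value across the threshold. With no size threshold 1 App and Aplp2 event passed in that pair, and 19 of all events in place of 10. With halved counts 1, 6 and 2 events of all genes were called in the pairs, in the order of the report, in place of 10, 26 and 8, and 0 of the APP list in place of 2 for CUG300 + CWG-cPIP minus CUG300 + vehicle. For CUG300 + CWG-cPIP minus CUG10 + vehicle, 4 events were called with adjustment over all event types, 13 with a threshold of 0.10 and 16 with none. With totals that leave out the marker genes, an alternative chosen after seeing the data, reads of App in CUG300 + vehicle were 0.625 of those in CUG10 + vehicle in place of 0.577, and those in CUG300 + CWG-cPIP were 1.28 times those in CUG300 + vehicle in place of 1.38. Each exon was listed with 1 pair of flanking exons, so summing over events could not differ. App exon 8, with 13 to 19 counts per library, had no value under the minimum of 20 counts. No paired analysis was possible because there is 1 mouse per group. No library could be left out for the same reason.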
